A study of Bos taurus with 16 samples.

Results

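The genes described here are 9 genes of killer lymphocytes: NKG7, GNLY, PRF1, GZMA, GZMB, GZMK, KLRD1, NCR1 and CTSW. Every probe that carried 1 of these symbols in the deposited array annotation was taken, which gave 20 of 43653 probes, for 8 of the 9 genes; no probe carried the symbol GZMK. They were measured in whole blood of lactating Holstein Friesian cows on 16 single-colour Agilent oligonucleotide arrays, 4 for each of 4 groups. The groups were probiotic day 60 with LPS (blood of cows given an oral probiotic pack of yeast, Enterococcus, Lactobacillus and Bacillus products for 60 days, to which lipopolysaccharide, a bacterial cell wall component, was added outside the animal at 100 ng/ml), probiotic day 60 (the same arm, no LPS), untreated day 60 (cows given water only) and day 0 (blood drawn before supplementation). All blood was held for 30 min at 37 °C. Each arm had 5 cows, and 1 RNA pool was made per group. The 4 arrays of a group repeat the hybridisation of that pool, so every p-value below measures the spread between arrays, not between cows. The day 0 labels name the probiotic arm, and which cows the day 0 pool held was not settled by the labels.

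Natural killer cells and cytotoxic T cells kill infected or transformed cells by releasing granules onto them. Perforin (PRF1) opens pores in the target membrane, granzymes (GZMA, GZMB, GZMK) are serine proteases that enter through them and start cell death, and granulysin (GNLY) is a membrane-damaging peptide that also acts on bacteria. NKG7 is a granule membrane protein, CTSW (cathepsin W) is a protease of killer cells, and KLRD1 (CD94) and NCR1 (NKp46) are surface receptors by which natural killer cells read their targets. In whole blood a lower signal of such genes can come from fewer killer cells or from less RNA per cell, and these cannot be told apart here.

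The arrays differed in brightness. Spots that the scanner software called well above background made up 22.5 to 42.1% of spots on the LPS arrays, 26.4 to 37.1% on the probiotic arrays, 12 to 17.9% on the untreated arrays and 8.26 to 23.0% on the day 0 arrays. No slide held arrays of more than 1 group, so slide effects and group effects cannot be told apart. The untreated arrays stood apart from the rest: over the 12197 probes kept for testing, their median Spearman correlation with the probiotic arrays was -0.03, against 0.66 among themselves, 0.89 among the probiotic arrays and 0.73 between probiotic and day 0 arrays. Because the whole untreated group stands apart, no result against it can be given without it. A fault in the hybridisation of these arrays, or in the assignment of their spots to probes, cannot be told apart from a difference between the groups, and every value against untreated blood carries that limit. LPS replicate 4 and day 0 replicate 4 had lost signal over part of their surface. Around the spot of NKG7 (within 15 rows and 15 columns), 29.9% of spots were well above background on LPS replicate 4, against 63.3 to 67.4% on the other LPS arrays, and 13.8% on day 0 replicate 4, against 43.1 to 45.1% on the other day 0 arrays.

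**Figure D1:**
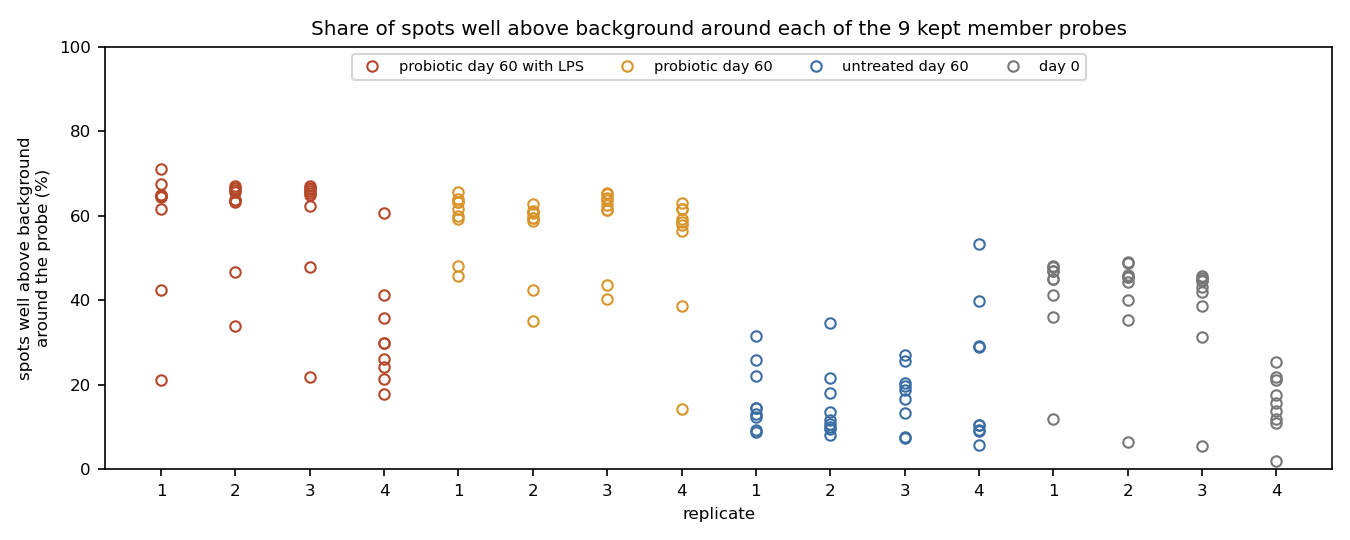
Share of spots well above background (%, vertical axis) within 15 rows and 15 columns of each of the 9 kept member probes, 1 circle per probe, for each array (replicate number, horizontal axis, coloured by group). The spread of circles within an array shows that signal depended on place; the highest circle, at 71.1%, is of LPS replicate 1, and the lowest, at 1.97%, of day 0 replicate 4.

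The probes are designed 60-base oligonucleotides, and which stretch of a gene each one reads matters because probes of 1 gene gave different signals. The 2 GZMB probes that were above background on all arrays of 3 groups overlap by 20 bases (capitals), so they read the same end of 1 transcript and are not independent measures of it; only the first 30 bases of A_73_110209 are given.
GZMB A_73_P069241: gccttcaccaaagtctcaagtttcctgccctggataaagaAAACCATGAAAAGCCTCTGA
GZMB A_73_110209: AAACCATGAAAAGCCTCTGActgcaggaac
The other 3 GZMB probes were designed on other granzyme B transcripts and share no such stretch with this pair; 2 of them are shown.
GZMB A_73_P069221: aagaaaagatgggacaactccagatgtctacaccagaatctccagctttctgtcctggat
GZMB A_73_P069216: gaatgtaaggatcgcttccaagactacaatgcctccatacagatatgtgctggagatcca
Over the best ungapped overlap of A_73_P069241 with A_73_P069221, 18 of 22 bases matched. Whether granzyme copies share signal on these probes was not tested, and the GZMB values are uncertain as to which copy they measure. The GNLY and KLRD1 probes that gave signal, and 3 CTSW probes that read the same transcript but differed in signal, are shown next, with GNLY and A_73_108526 given by their first 30 bases.
GNLY A_73_P035061: tggacatcaagatgtgcaaaagcaagccag
KLRD1 A_73_103989: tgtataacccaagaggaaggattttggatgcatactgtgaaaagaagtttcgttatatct
CTSW A_73_108526: caaggcttttgcctagttccccagtattct
CTSW A_73_P318696: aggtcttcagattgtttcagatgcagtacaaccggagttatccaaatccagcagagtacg
CTSW A_73_P385136: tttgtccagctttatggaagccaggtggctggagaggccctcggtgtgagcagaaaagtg

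A probe was kept for testing when it was well above background on all 4 arrays of at least 1 group. Of the 20 probes, 9 were kept, for NKG7, GNLY, GZMA, GZMB, KLRD1 and CTSW. All 9 met that condition on the probiotic arrays, 6 on the LPS arrays, 3 on the untreated arrays and 2 on the day 0 arrays. Over all 12197 kept probes, 10364 met it on the probiotic arrays, 6521 on the LPS arrays, 2432 on the untreated arrays and 2862 on the day 0 arrays, so the members entered the test through the same bright groups as most probes. CTSW A_73_108526, CTSW A_73_P318696 and KLRD1 met it on the probiotic arrays alone. No kept probe measured PRF1 or NCR1. The probe of NCR1 was not well above background on any of the 16 arrays, with a net signal (spot minus background, in scanner units) between -3 and 33. Of the 3 PRF1 probes, A_73_P102581 was above background on 0 arrays and A_73_P102611 on 1, whereas A_73_P045481 was above background on 11 of 16 arrays. Its net signals were 110, 218, 63 and 16 on the LPS arrays, 173, 100, 138 and 33 on the probiotic arrays, -45, 214, 264 and -27 on the untreated arrays, and 88, 73, 43 and 8 on the day 0 arrays. The perforin signal thus reached background level on at least 1 array in each group, and the groups overlapped. Among the other probes that were not kept, CTSW A_73_P330621, GNLY A_73_P133411 and GZMB A_73_112113 were above background on 1 array each and KLRD1 A_73_P131121 on 0. GZMA A_73_P107781 was above background on 6 arrays, with its highest net signal, 448, on LPS replicate 3. GZMB A_73_P069216 was above background on 5 arrays, 3 of them LPS arrays with 189, 333 and 199, and GZMB A_73_P069221 on 4 arrays, 3 of them probiotic arrays with 735, 176 and 353.

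**Figure D2:**
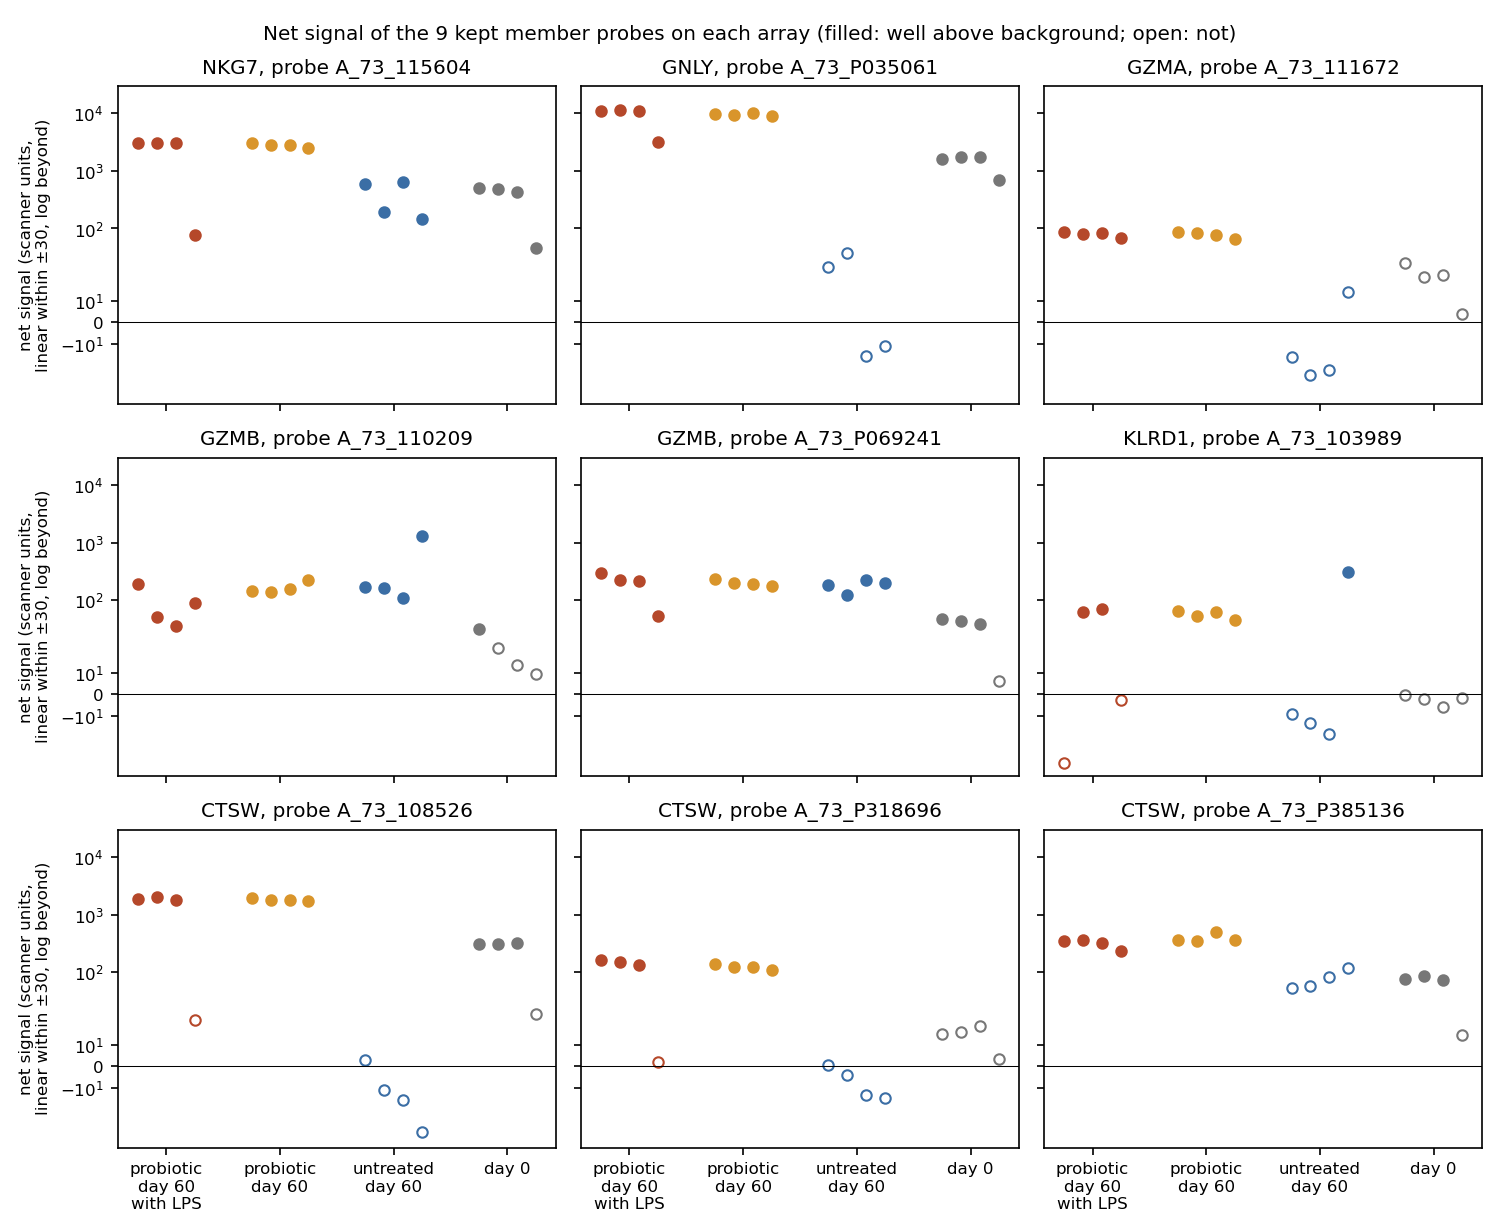
Net signal in scanner units (vertical axis, linear within ±30 and logarithmic beyond) of the 9 kept member probes on each array, by group (horizontal axis); filled points were well above background and open points were not. GNLY and the CTSW probe A_73_108526 were at background on all 4 untreated arrays, while NKG7 and both GZMB probes were filled there.

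Granulysin was at background on the untreated arrays and bright on the others. GNLY A_73_P035061 had net signals of 10919, 11313, 11003 and 3129 on the LPS arrays, 9794, 9506, 10170 and 8925 on the probiotic arrays, 26, 37, -16 and -11 on the untreated arrays, and 1641, 1764, 1733 and 702 on the day 0 arrays. It was above background on all 12 arrays of the LPS, probiotic and day 0 groups and on none of the untreated arrays, and no untreated value overlapped another group.

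NKG7 was the only member above background on all 16 arrays. Its net signals were 3096, 3005, 3053 and 76 on the LPS arrays, 3014, 2841, 2880 and 2521 on the probiotic arrays, 583, 196, 642 and 147 on the untreated arrays, and 508, 487, 429 and 46 on the day 0 arrays. The probiotic arrays lay above all untreated and day 0 arrays in net signal, and the untreated and day 0 arrays overlapped. LPS replicate 4 and day 0 replicate 4 were far below the other arrays of their groups.

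The CTSW probe A_73_108526 went with GNLY. It had 1870, 2050, 1842 and 22 on the LPS arrays, 1938, 1821, 1791 and 1716 on the probiotic arrays, 3, -11, -16 and -32 on the untreated arrays, and 315, 316, 330 and 24 on the day 0 arrays. It was not above background on any untreated array, nor on the same 2 arrays, LPS replicate 4 and day 0 replicate 4, that were low for NKG7. The second CTSW probe, A_73_P318696, had 164, 155, 137 and 2 on the LPS arrays, 141, 126, 125 and 111 on the probiotic arrays, 1, -4, -14 and -15 on the untreated arrays, and 15, 16, 19 and 3 on the day 0 arrays. It was above background only on the probiotic arrays and 3 LPS arrays. The third, A_73_P385136, had 238 to 367 on the LPS arrays, 345 to 512 on the probiotic arrays, 53 to 117 on the untreated arrays and 15 to 85 on the day 0 arrays. The software called none of its untreated spots above background, although they overlapped the day 0 range, where 3 of 4 spots were called; the additive error of the signal was 15.7 to 25.8 scanner units on the untreated arrays and 6.29 to 7.68 on the day 0 arrays.

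Granzyme B did not follow granulysin. GZMB A_73_P069241 had 304, 229, 215 and 53 on the LPS arrays, 237, 198, 197 and 182 on the probiotic arrays, 184, 125, 224 and 205 on the untreated arrays, and 48, 44, 39 and 6 on the day 0 arrays. Probiotic and untreated arrays overlapped in net signal, and all day 0 arrays lay below both. GZMB A_73_110209 had 191, 52, 36 and 89 on the LPS arrays, 148, 140, 159 and 229 on the probiotic arrays, 172, 166, 108 and 1295 on the untreated arrays, and 32, 22, 14 and 10 on the day 0 arrays. Untreated replicate 4 was far above all other arrays with this probe, but was within the range of its group with the overlapping probe. Granzyme A was dim: GZMA A_73_111672 had 68 to 86 on the LPS arrays and 65 to 87 on the probiotic arrays, all above background, against -25 to 14 on the untreated arrays and 4 to 28 on the day 0 arrays, none above background.

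The receptor gene KLRD1 was near background throughout. Its probe A_73_103989 had -36, 63, 71 and -2 on the LPS arrays, 64, 53, 63 and 46 on the probiotic arrays, -9, -13, -19 and 319 on the untreated arrays, and -6 to 0 on the day 0 arrays. The only untreated array with a signal was replicate 4, the same array that was high for GZMB A_73_110209.

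For the tests, log2 net signals were scaled by subtracting, per array, the 75th percentile over the 671 probes well above background on all 16 arrays. That level was 1797 to 11190 scanner units on the LPS arrays, 7120 to 11943 on the probiotic arrays, 1076 to 1380 on the untreated arrays and 777 to 3024 on the day 0 arrays, so an equal net signal gives a higher scaled value on an untreated array. Passing required a fold of at least 2 and, from limma, a p under 0.05 after Benjamini-Hochberg adjustment over all 12197 kept probes. Beside a difference, ± gives its standard error in the fit. Where a probe was dim on all 4 arrays of 1 group, only a bound is given ("at least"), taken against the higher of its own signal and the lowest signal above background on each array.

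Probiotic against untreated blood at day 60 addresses what the supplement did over the study. GNLY and CTSW A_73_108526 were higher in probiotic blood and both GZMB probes were lower, while NKG7, with overlapping scaled values, did not pass. Of the 9 member probes, 2 passed as higher and 3 as lower, and the median difference was -0.63 on the log2 scale (CTSW A_73_P385136). Over all kept probes 59.2% passed, 24.0% as higher and 35.1% as lower, with a median of -0.29, so passing by itself does not set the members apart. GNLY was at least 11.6-fold higher (difference 5.50 ± 0.32, adjusted p = 8.55e-09). CTSW A_73_108526 was at least 2.19-fold higher (difference 3.46 ± 0.74, adjusted p = 0.000936), and it had entered the test only through the probiotic group, in which it was the higher. GZMB A_73_P069241 was 7.39-fold lower (-2.89 ± 0.33, adjusted p = 5.14e-06) and A_73_110209 was 12.6-fold lower (-3.65 ± 0.84, adjusted p = 0.00159). The net signals of A_73_P069241 overlapped between the groups, and relative to the 75th percentile over all probes of the array neither GZMB probe passed (-1.03, adjusted p = 0.0535, and -1.79, adjusted p = 0.0687); with local scaling A_73_110209 did not pass either (-1.71, adjusted p = 0.0827). KLRD1 passed as lower (-2.47 ± 0.88, adjusted p = 0.0247) with 1 of 4 untreated spots above background. That call was lost without untreated replicate 4 (-1.46, adjusted p = 0.0761) and without probiotic replicate 2 (-2.40, adjusted p = 0.0518). It was also lost relative to all probes (-0.61, adjusted p = 0.524), with median scaling (-1.51, adjusted p = 0.153) and with local scaling (-2.05, adjusted p = 0.0941), and the difference turned positive with quantile normalization and cyclic loess. NKG7 differed by 0.07 ± 0.68 (adjusted p = 0.935; 95% interval -1.38 to 1.52), and its sign turned with the scaling: it was 1.93 relative to all probes (adjusted p = 0.0424) and -3.20 after cyclic loess (adjusted p = 3.01e-05). GZMA and the other 2 CTSW probes, dim on all untreated arrays, did not pass, and their bounds lay under 1. All untreated values of GZMA and CTSW A_73_P318696 in this fit are the additive error in place of a signal. Their negative differences (-1.10 and -0.40) rest on it, although both were above background on all probiotic arrays.

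Place on the array moved with these differences, and its part in the result was not tested. Among the 364 kept probes within 15 rows and 15 columns of GNLY the median difference between probiotic and untreated arrays was 1.05, and 95.9% of them had a lower difference than GNLY. Around CTSW A_73_108526, 88.2% of 561 kept probes had a lower difference than its own. Around GZMB A_73_P069241 the median was 0.56, and 9.62% of 291 kept probes lay below it. GZMB A_73_110209 lay in an area where probes were lower in probiotic blood (median -1.74), and 22.5% of 111 kept probes lay below it.

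**Figure D3:**
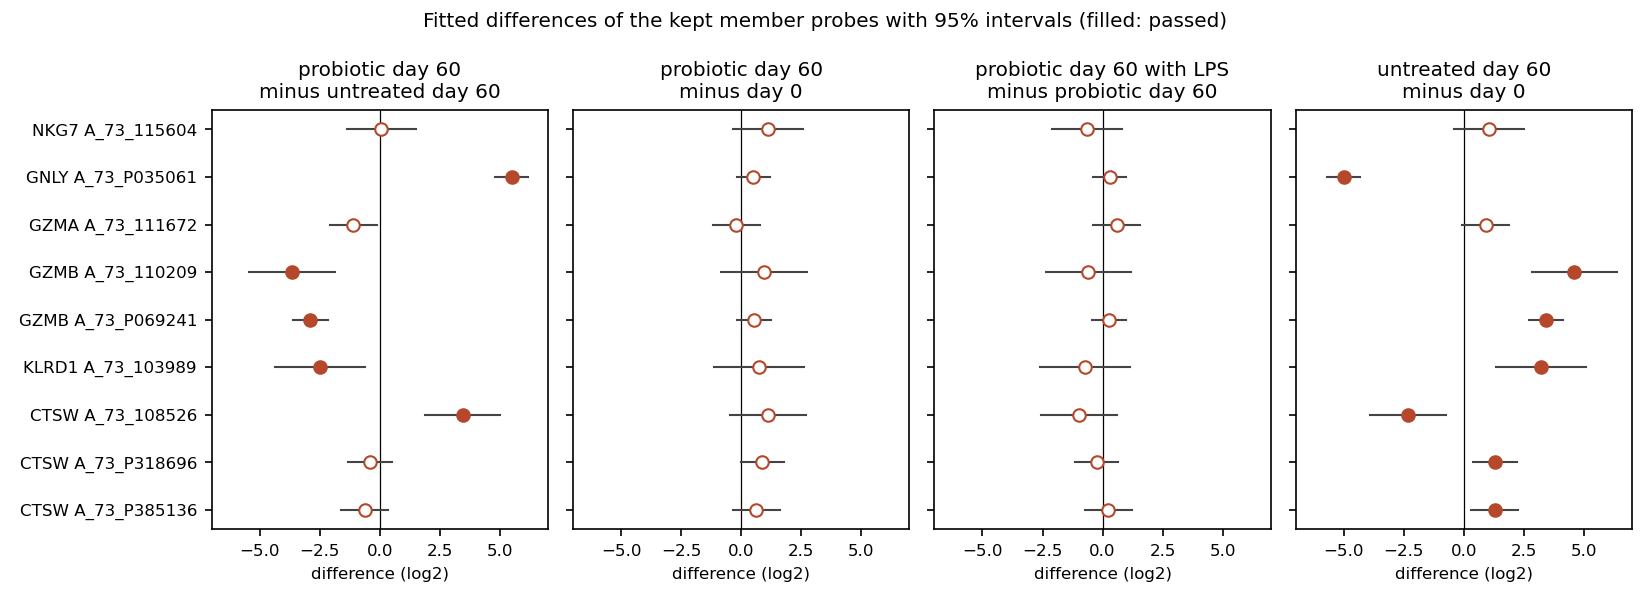
Fitted differences (log2, horizontal axis; first-named minus second-named group) of the 9 kept member probes in 4 comparisons, with 95% intervals of the fit; filled points passed. In probiotic minus untreated blood 2 probes passed as higher and 3 as lower, and in the comparisons of probiotic blood with day 0 and of LPS with no LPS none passed. For probes dim in 1 group the plotted point is a fitted value and not a bound.

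A ratio of a member to NKG7 on the same array is free of scaling and shows only whether the 2 signals differed unequally. It also carries a loss of signal at the place of either spot. On the LPS arrays, which repeat 1 pool, the log2 ratio of GNLY to NKG7 was 1.82 to 1.91 on replicates 1 to 3. On LPS replicate 4, which had lost signal around NKG7, it was 5.36. The log2 ratio of GNLY to NKG7 was 1.70 to 1.82 on the probiotic arrays, against -5.24 to -2.42 on the untreated arrays, where GNLY was dim. That of CTSW A_73_108526 was -0.69 to -0.56 on the probiotic arrays, against -5.24 to -2.51 on the untreated arrays, where it was dim too. In place of a signal these untreated values hold the additive error, on all 4 arrays for CTSW and on 2 for GNLY, so for CTSW they follow NKG7 and the array's error alone. GZMB A_73_P069241 over NKG7 went the other way, with -3.87 to -3.67 on the probiotic arrays and -1.66 to 0.48 on the untreated arrays. None of these ranges overlapped. The exact two-sided permutation test gave 0.0286 for each, the smallest p that 4 against 4 arrays allow, and 0.0914 after Benjamini-Hochberg adjustment over the 32 ratios tested, so no ratio passed the correction; for GNLY and CTSW the test sets a signal against a dim group. Probiotic and day 0 arrays were closer: CTSW A_73_108526 over NKG7 averaged -0.63 ± 0.05 on the probiotic arrays and -0.65 ± 0.21 on the day 0 arrays (SD, n = 4 each; exact p = 0.857), and GNLY over NKG7 averaged 1.77 ± 0.06 on the probiotic arrays and 2.38 ± 1.05 on the day 0 arrays (exact p = 0.229). For GNLY the ratio was 3.94 on day 0 replicate 4, which had lost signal around NKG7, and 1.69 to 2.01 on the other day 0 arrays.

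**Figure D4:**
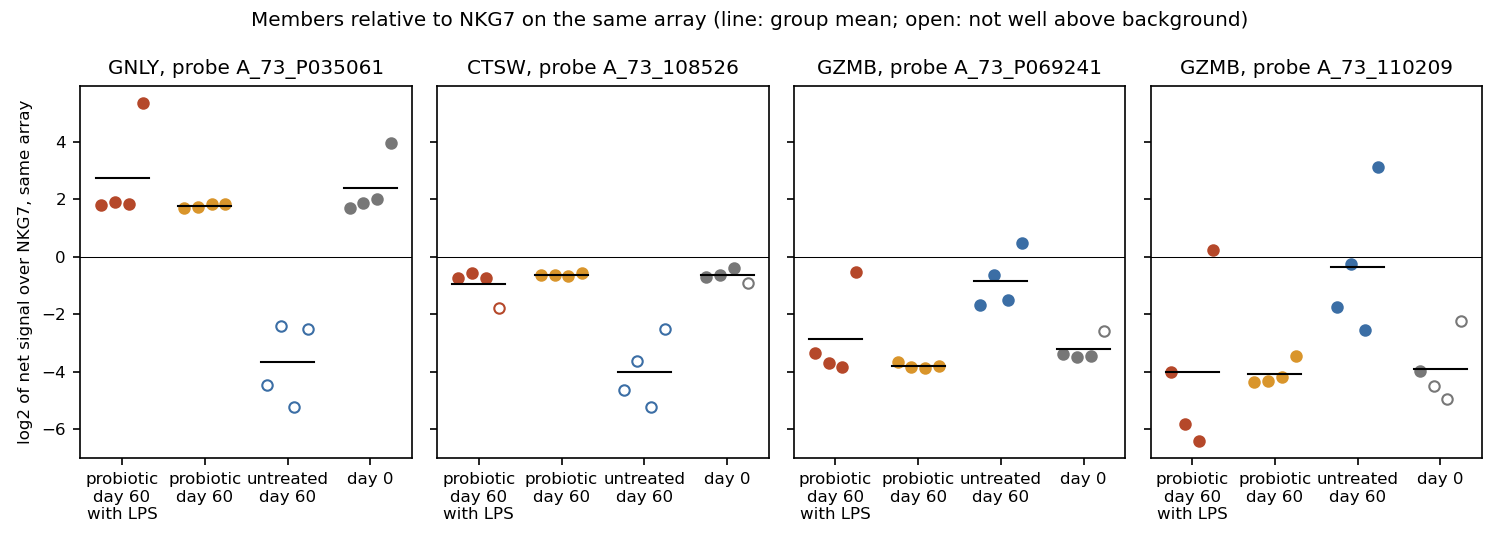
Log2 of the net signal of 4 member probes over that of NKG7 on the same array (vertical axis) by group (horizontal axis); lines are group means and open points mark a member not well above background. GNLY and CTSW lay between -5.24 and -2.42 on the untreated arrays, below their probiotic and day 0 values, and GZMB A_73_P069241 lay above its probiotic and day 0 values.

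Probiotic day 60 against day 0 asks what changed in blood over the supplemented period. None of the 9 probes passed, whereas 10.9% of all kept probes did (7.02% as higher and 3.89% as lower). Over all kept probes 1330 passed and 3361 had an unadjusted p under 0.05. All members but GZMA had positive differences, between 0.51 and 1.13 on the log2 scale, beside a median of 0.62 over all probes. NKG7 differed by 1.11 ± 0.68 (adjusted p = 0.298) and GNLY by 0.51 ± 0.32 (adjusted p = 0.317). CTSW A_73_108526 differed by 1.13 ± 0.74 (adjusted p = 0.329), and by 0.67 (adjusted p = 0.633) without day 0 replicate 4. The software had multiplied the signal of day 0 replicates 2, 3 and 4 and of LPS replicate 4 by a factor that varies over the array. With that processed signal 6 of the 9 probes passed as higher, GNLY by 3.00 (adjusted p = 0.00348) and NKG7 by 3.31 (adjusted p = 0.0127) among them, so the result against day 0 depended on this step. Over all kept probes 4804 of 12197 passed as higher and 1743 as lower with the processed signal.

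LPS against no LPS in probiotic blood was the study's positive control. None of the 9 probes passed, against 1.83% of all kept probes (1.71% as higher and 0.123% as lower). Over all kept probes 223 passed and 756 had an unadjusted p under 0.05. GNLY differed by 0.30 ± 0.32 (adjusted p = 0.9), with a 95% interval of -0.38 to 0.99, and GZMB A_73_P069241 by 0.28 ± 0.33 (adjusted p = 0.9), with an interval of -0.43 to 1.00. NKG7 differed by -0.66 ± 0.68 (adjusted p = 0.9) with all arrays and by 0.03 (adjusted p = 1) without LPS replicate 4, and CTSW A_73_108526 by -0.98 ± 0.74 (adjusted p = 0.9) with all arrays and by -0.01 (adjusted p = 1) without it. On the other 3 LPS arrays the net signals of NKG7 were 3005 to 3096, against 2521 to 3014 on the probiotic arrays, and those of the CTSW probe 1842 to 2050, against 1716 to 1938.

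Untreated day 60 against day 0 compares blood that had no supplement with the starting blood. GNLY was lower and both GZMB probes were higher in untreated blood. Of the 9 probes 5 passed as higher and 2 as lower, against 56.2% of all kept probes, 40.1% as higher and 16.1% as lower, with a median difference of 0.94. GNLY was at least 8.15-fold lower (difference -5.00 ± 0.32, adjusted p = 2.6e-08). GZMB A_73_P069241 was 10.8-fold higher (3.43 ± 0.33, adjusted p = 9.89e-07), with 3 of 4 day 0 spots above background, and A_73_110209 was 24.2-fold higher (4.60 ± 0.84, adjusted p = 0.000281), with 1 of 4. The call of A_73_110209 was lost with the processed signal (1.59, adjusted p = 0.269) and with local scaling (1.44, adjusted p = 0.147). KLRD1 passed as higher (3.20 ± 0.88, adjusted p = 0.0059), but with 1 of 4 untreated spots and no day 0 spot above background no fold is given. Its call was lost in 6 alternatives, the 5 other scalings and normexp, with adjusted p of 0.0551 to 0.558. CTSW A_73_108526 passed as lower (-2.32 ± 0.74, adjusted p = 0.0142), with a bound of 1.00-fold, and did not pass with the processed signal (-0.83, adjusted p = 0.532), cyclic loess (-1.05, adjusted p = 0.106) or normexp (-0.73, adjusted p = 0.0572). CTSW A_73_P318696 and A_73_P385136 passed as higher, with fitted differences of 1.29 and 1.27, but the first was dim in both groups and the second had a bound under 1, so no fold is given; both differences turned negative relative to the 75th percentile over all probes (-0.79 and -0.81). Without day 0 replicate 1 neither passed (1.15, adjusted p = 0.0525, and 1.27, adjusted p = 0.055), and the second did not pass without day 0 replicate 4, untreated replicate 3 or untreated replicate 4 either (adjusted p = 0.0609, 0.0664 and 0.0749). NKG7 differed by 1.04 ± 0.68 (adjusted p = 0.202), and here too its sign moved with the scaling, from -1.04 relative to all probes to 3.48 after cyclic loess (adjusted p = 1.84e-05). The comparisons of untreated blood with probiotic and with day 0 blood share the 4 untreated arrays.

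Other genes of the killing pathway are described by lists, each gene by its brightest kept probe. Folds of list genes and of the cell markers below are of scaled values. The level subtracted was 7120 to 11943 scanner units on the probiotic arrays and 1076 to 1380 on the untreated arrays. A gene of equal net signal in both therefore comes out lower in probiotic blood, as can be so for TBX21 and UNC13D. These genes were not tested one by one under the other scalings. Of 6 tested granule proteins beyond the members, 3 passed as higher and 2 as lower in probiotic than in untreated blood; 1 of the 2, CST7, was dim on all untreated arrays, so its direction rests on the floor there (the additive error that stands in for a signal). SRGN, the proteoglycan that packs granule contents, was 20.8-fold higher (adjusted p = 2.18e-05), and CTSH, a protease that activates granzymes, was 10.7-fold higher (adjusted p = 0.00588). GZMM, a granzyme of natural killer cells, passed as lower (difference -8.00, adjusted p = 0.00024), with net signals of 5 to 6 on the probiotic arrays, against 1073, 466, 490 and -57 on the untreated arrays. Against day 0 it was at least 12.6-fold lower in probiotic blood (adjusted p = 0.0177), beside 102 to 133 on the day 0 arrays. GZMM had entered the test only through the day 0 group, in which it was the higher. CST7, an inhibitor of granule cathepsins, passed as lower in probiotic than in day 0 blood (difference -2.14, adjusted p = 0.0232), with 2 of 4 probiotic and 3 of 4 day 0 spots above background. In untreated against day 0 blood 2 of the 6 were lower, SRGN by 18.7-fold (adjusted p = 3.02e-05) and CTSH by 5.79-fold (adjusted p = 0.0443, with 3 of 4 spots above background in each group), and none was higher, beside the 16.1% of all kept probes that passed as lower.

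Of 8 granule transport genes, 4 were higher and 1 lower in probiotic than in untreated blood. RAB7A, a late endosome GTPase, was at least 3.2-fold higher (adjusted p = 0.00346) and VAMP8, a vesicle fusion protein, at least 2.91-fold higher (adjusted p = 0.0239). UNC13D, which primes granules for release, was 8.38-fold lower (adjusted p = 0.00742) and in untreated blood at least 19.7-fold higher than on day 0 (adjusted p = 0.000148). RAB27A, which docks granules, was at least 2.89-fold lower in untreated than in day 0 blood (adjusted p = 2.65e-05). Of the 8, HPS1 alone passed between probiotic and day 0 blood, 2.16-fold higher in probiotic blood (adjusted p = 0.049), beside 10.9% of all kept probes. Of 7 granzyme inhibitors and apoptosis targets, 4 were higher and 1 lower in probiotic than in untreated blood, among them the death receptor FAS, at least 2.4-fold higher (adjusted p = 0.000491), and the nuclease DFFB, which passed as lower (adjusted p = 1.07e-05) with 1 of 4 untreated spots and no probiotic spot above background, so no fold is given. DFFB was also the only gene of the 3 lists of granule proteins, granule transport and granzyme targets that passed with LPS, at least 3.91-fold higher than without (adjusted p = 0.0128). DFFB had entered the test only through the LPS group, in which it was the higher. Of the 7, PARP1 alone passed between probiotic and day 0 blood, 3.14-fold higher in probiotic blood (adjusted p = 0.0259).

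Of 9 killer cell receptors and adaptors, 1 passed as higher and 3 as lower in probiotic than in untreated blood. The Fc receptor FCGR3A was at least 1.3-fold higher (adjusted p = 0.00422). Of the 3 lower calls, those of CD226 (named after its values were seen) and SH2D1B were of genes dim on all untreated arrays and above background on all probiotic arrays, so their direction rests on the floor, and that of KIR3DL2 (adjusted p = 0.0132) had 1 of 4 untreated spots above background. Of 6 transcription factors, 2 passed as higher and 2 as lower, 1 of the lower, ETS1, being dim on all untreated arrays. ID2, needed for natural killer cell development in mice, was at least 3.45-fold higher (adjusted p = 1.49e-07), and TBX21 (T-bet), which drives the cytotoxic programme, was 7.62-fold lower in probiotic than in untreated blood (adjusted p = 6.92e-05) and 6.62-fold higher in untreated than in day 0 blood (adjusted p = 0.000137). All 3 tested genes of cytokines, chemokines and cytokine receptors were lower in probiotic than in untreated blood. They were the chemokines CCL5 and XCL1 and the receptor IL21R, with CCL5 19.5-fold lower (adjusted p = 1.59e-06). All 3 were higher in untreated than in day 0 blood, CCL5 by at least 15.4-fold (adjusted p = 6.59e-08). CCL5 also passed as higher in probiotic than in day 0 blood (difference 1.78, adjusted p = 0.0189). It was dim on all day 0 arrays with a bound under 1, so no fold is given. All these list counts between probiotic and untreated blood stand beside the 59.2% of kept probes that passed there.

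Markers of the cells that carry or surround these genes were compared as well, and their part in the members' results was not tested. Their counts between probiotic and untreated blood stand beside the 59.2% of kept probes that passed there, 24.0% as higher and 35.1% as lower. Passing by itself thus does not set the markers apart. Of 11 tested T cell markers, 5 were higher and 1 lower in probiotic than in untreated blood, and CD3E, CD3G, CD247, CD8A, CD6 and LCK were dim on all untreated arrays. The summed net signal of the 11 markers was 38108 to 53474 on the probiotic arrays, against 801 to 3986 on the untreated arrays and 4287 to 14242 on the day 0 arrays. This sum and those given below for other cells are not scaled for the unequal brightness of the arrays. After scaling, none of the 11 passed between probiotic and day 0 blood, with a median difference of 0.62, beside 0.62 over all kept probes. CD3E, a CD3 subunit of the T cell receptor complex, was at least 9.99-fold higher in probiotic than in untreated blood (adjusted p = 1.14e-05). Of 5 monocyte markers 3 were higher and 2 lower, with a summed net signal of 31617 to 36313 on the probiotic arrays, against 540 to 1121 on the untreated arrays; CSF1R was at least 8.66-fold higher (adjusted p = 1.68e-05) and CD68 passed as lower (adjusted p = 9.29e-05) with 1 of 4 untreated spots above background. Of 6 neutrophil markers 3 were higher and 2 lower, with sums of 61540 to 79226 on the probiotic arrays, against 355 to 794 on the untreated arrays. S100A12 was at least 68.2-fold higher (adjusted p = 3.17e-06). Of 5 B cell markers 2 were higher and 2 lower, with CD79B at least 4.33-fold higher (adjusted p = 2.7e-05). Of the genes named here, CD68 was dim on all probiotic arrays, while CD3E, S100A12, CSF1R and CD79B were dim on all untreated arrays.

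The genes most like GNLY across the arrays were sought among 7114 genes with a symbol, by Pearson's r over the 16 arrays of the scaled log2 value. They were MGC139164, CCDC167, LDHB (lactate dehydrogenase B), CTR9 (a part of the transcription elongation complex Paf1) and ZNF638, with r of 0.99 or above. The arrays share their slide within each group, and 274 genes (3.85%) reached an r of 0.95. Over the 12 arrays of the other groups r was between 0.84 for CCDC167 and 0.99 for CTR9.

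**Figure D5:**
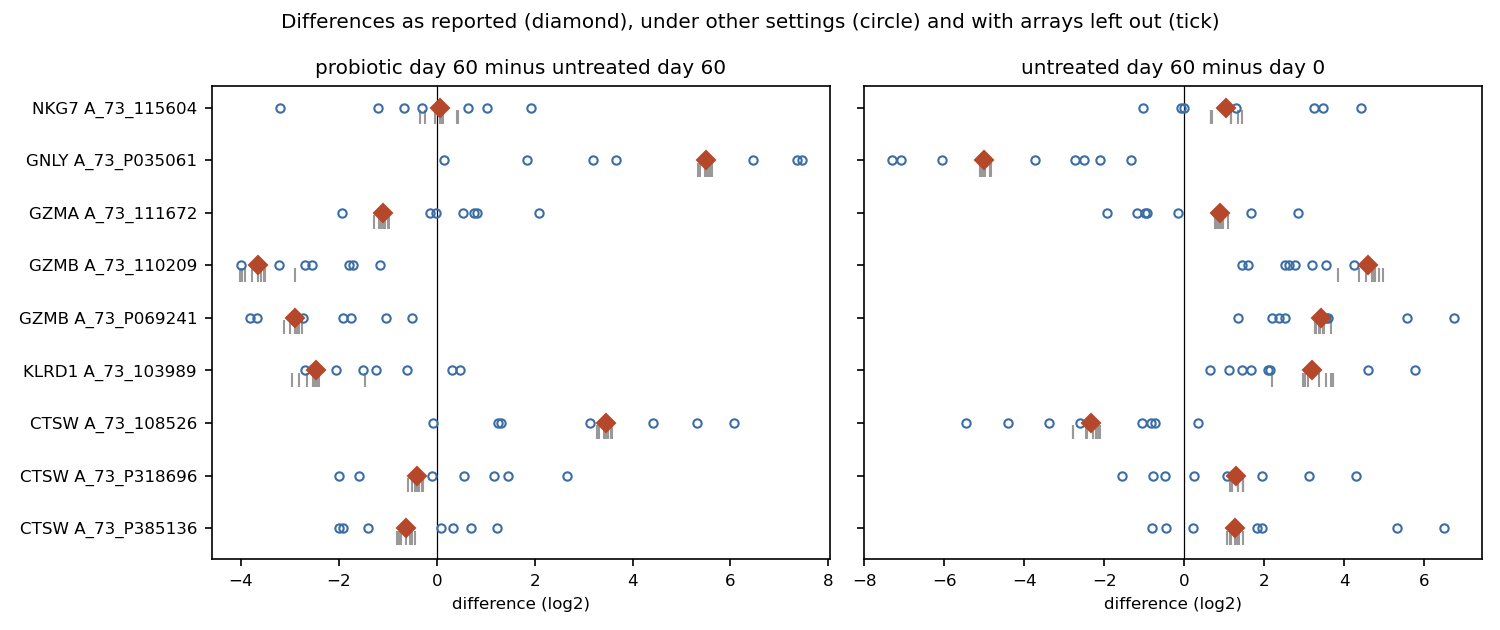
Differences (log2, horizontal axis) of the 9 kept member probes in probiotic minus untreated and in untreated minus day 0 blood, as reported (diamonds), under other settings (circles) and with arrays left out (ticks). GNLY stayed on 1 side of 0 in both panels, and so did both GZMB probes, while NKG7, GZMA, KLRD1 and the 3 CTSW probes changed sign between settings in at least 1 panel.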

How the data were processed

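Scanner files of 16 arrays were deposited, made with Agilent Feature Extraction 10.10.1.1 per the submitters' processing notes; per the file headers each holds, per spot, a background-subtracted intensity in scanner units (the net signal) and a processed intensity that on day 0 replicates 2, 3 and 4 and LPS replicate 4 was also multiplied by a smooth spatial factor. The authors also deposited 1 log2 value per probe and group; its centring is not given in the sources used here, its column medians being 0.01 for LPS, 0.26 for probiotic, 0.42 for untreated and -0.83 for day 0.

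Log2 net signal (the software's additive error where a spot was not positive and significant; no member spot was an outlier or saturated) minus the 75th percentile over 671 probes well above background on all 16 arrays was fitted with lmFit and eBayes of limma 3.58.1 (R 4.3.3), in 1 two-sided fit of all 16 arrays; 12197 of 43653 non-control probes were kept. On simulated data of 11896 probes the fit recovered 76 of 100 log2 changes of 4 and 26 of 100 of 2 for probiotic against untreated. It made 9 false calls among the probes left unchanged. The simulated noise was independent between probes, with no floor or place effect, and few probes changed, so these rates need not hold here. Replicate numbers do not pair arrays (7 of 24 same-number correlations over 0.1). All probes of the members are described; list genes are named by the 3 largest passing differences per list and comparison, and the 5 genes most like the brightest member probe. The members and lists were chosen with earlier results of these data known. Probes were named by accession through a bovine RefSeq table (26832 probes), by a current (6525) or older symbol (131) or by the file's own symbol (1387). 1 marker gene is not reported here. The number of arrays limits the precision. Figures used matplotlib 3.10.9.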

Additional observations from a re-analysis of the deposited data

Results flagged for a closer look

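Single arrays lay far from the other 3 of their group in 10 of 36 sets of 4 arrays (9 kept member probes, 4 groups), by the gap to the nearest array over the range of the group on the scaled log2 values; chance flags about 1 in 20 such sets. All 10 were replicate 4 of their group. On LPS replicate 4 the ratio was 0.953 (low) for CTSW A_73_108526, 0.92 (low) for NKG7, 0.889 (high) for GZMA and 0.864 (high) for CTSW A_73_P385136. On day 0 replicate 4 it was 0.97 (low) for NKG7, 0.896 (low) for GZMB A_73_P069241 and 0.852 (low) for CTSW A_73_108526. On probiotic replicate 4 it was 0.939 for CTSW A_73_108526, 0.918 for CTSW A_73_P318696 and 0.836 for NKG7, all high on the scaled values although their net signals, 1716, 111 and 2521, were the lowest of their group; the level subtracted there was 7120 scanner units, against 10798 to 11943 on the other probiotic arrays.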

How the results depend on the processing

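GNLY passed in the same direction in both comparisons with untreated blood under every alternative tested with limma (differences of 0.14 to 7.46 for probiotic minus untreated and -7.31 to -1.32 for untreated minus day 0, the values nearest 0 being those of the authors' deposited averages, which carry no test). Leaving out 1 array at a time gave 4 to 6 passing member probes between probiotic and untreated blood, 5 to 7 between untreated and day 0 blood, and 0 in the others. With the replicate block, 2 passed as higher and 4 as lower between probiotic and untreated blood. Only GZMA's call changed (adjusted p = 0.0334), and its direction rests on the untreated floor. Between probiotic and untreated blood 8 probes passed with normexp (2 higher, 6 lower), 8 of 13 with detection on at least 4 arrays (2 higher, 6 lower), 15 of 20 with no filter (2 higher, 13 lower), and 2 were at least 2-fold lower in the authors' deposited averages. Over all probes 6812 of 12197 passed as lower and 1464 as higher with normexp. With detection on at least 4 arrays 7143 of 16848 were lower and 2918 higher, and with no filter 34034 of 43653 were lower and 3068 higher. These member counts by themselves therefore do not set the members apart. Against day 0, 6 passed as higher in probiotic blood with the processed signal, 4 as lower with no filter, 8 were at least 2-fold apart in the authors' deposited averages (7 higher, 1 lower), and 1 (CTSW A_73_P318696) passed without day 0 replicate 4 and LPS replicate 4, a choice made after seeing the data, as was the ratio to NKG7. Over all probes 4804 of 12197 passed as higher and 1743 as lower with the processed signal. With no filter 14321 of 43653 were lower and 1319 higher. With LPS, 1 passed as higher with detection on at least 4 arrays, and 8 were at least 2-fold lower in the authors' deposited averages. Over all probes 400 of 16848 passed as higher with that detection rule. Shares over all probes were not counted for the deposited averages in any comparison. Their column medians differ, being 0.01 for LPS, 0.26 for probiotic, 0.42 for untreated and -0.83 for day 0. Member counts from these averages therefore do not set the members apart. Between untreated and day 0 blood 4 passed with the median scaling (2 higher, 2 lower), 4 with normexp (3 higher, 1 lower), 4 with the brightest probe per gene (2 higher, 2 lower) and 15 of 20 with no filter (13 higher, 2 lower). Over all probes 2922 of 12197 passed as higher and 3259 as lower with the median scaling, and 4363 and 1140 with normexp. With the brightest probe 3736 of 9415 were higher and 1586 lower, and with no filter 33131 of 43653 were higher and 2075 lower.

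Where a difference passed as reported or under the alternative, directions turned as follows in probiotic minus untreated blood: NKG7 -3.20 with cyclic loess and -1.20 with local scaling; GZMA 2.10 with quantile normalization; KLRD1 0.30 with quantile normalization and 0.47 with cyclic loess; CTSW A_73_108526 -0.069 in the authors' deposited averages; CTSW A_73_P318696 1.46 relative to all probes, 2.66 with quantile normalization and 1.16 with cyclic loess; CTSW A_73_P385136 1.23 relative to all probes. In the authors' deposited averages they turned for probiotic minus day 0 (GNLY -1.18, GZMA 2.82) and LPS minus probiotic (GNLY -1.16, GZMB A_73_P069241 -1.11, CTSW A_73_P385136 -1.28). In untreated minus day 0 they turned for GZMA (-1.18 relative to all probes, -1.92 with quantile normalization), CTSW A_73_108526 (0.35 in the authors' deposited averages), CTSW A_73_P318696 (-0.79 relative to all probes, -1.55 with quantile normalization, -0.48 with cyclic loess) and CTSW A_73_P385136 (-0.81 relative to all probes, -0.47 with quantile normalization). Differences that passed in neither setting also changed sign, NKG7 in untreated minus day 0 among them (-1.04 relative to all probes). The share of passing probes that were higher moved with the scaling over the whole table, from 40.6% as reported to 74.1% relative to all probes and 21.1% with cyclic loess between probiotic and untreated blood, and from 71.3% to 25.3% relative to all probes between untreated and day 0 blood. Over the same 2 comparisons the median of all probes moved from -0.29 to 1.57 and from 0.94 to -1.14 relative to all probes. The cause of these shifts was not tested. With 12 to 17.9% of spots above background, the untreated arrays limit what can be said of dim members there.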

Other observations

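Probes of close relatives that carry other symbols, chosen after their values were seen, gave little signal. The probe of LOC616323 was above background on 1 array, LPS replicate 4, with a net signal of 52. Another granzyme A probe, annotated gzmA, was above background on untreated replicate 1 alone, with 117, and a probe of a PRF1 transcript without a symbol on no array, with -26 to 38.

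Within the untreated group the members were not high on the same arrays. NKG7 had 583 and 642 on replicates 1 and 3 and 196 and 147 on replicates 2 and 4, GZMB A_73_110209 and KLRD1 had their highest values, 1295 and 319, on replicate 4, and GZMM had 1073 on replicate 1 and -57 on replicate 4. The overlapping GZMB probe ranged from 125 to 224 over the same 4 arrays, so the 2 GZMB probes differed on replicate 4 (1295 and 205 scanner units).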
